A study of Mus musculus with 4 samples.

Results

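The transcripts of 10 transcription factor genes tied to the naive and stem-like states of T cells were compared in CD8 T cells of mouse hepatocellular carcinoma with JAML at the surface and without it. The genes were Tcf7, Lef1, Bach2, Bcl6, Id3, Id2, Foxo1, Foxp1, Satb1 and Klf3, taken by symbol from the 14934 genes of the table. All 10 were found, and all 10 passed the filter on low counts that left 11563 genes for testing. The cells were T cells of wild-type (WT) mice, sorted by flow cytometry from the tumours, with no treatment stated. JAML (junctional adhesion molecule-like) is an adhesion receptor with immunoglobulin domains, and the comparison asks how cells that carry it differ from cells that lack it. The 2 groups held 2 libraries each, named replicate A and replicate B, and paired values below give A first. Mouse strain, age and the way the tumours were raised are not stated in the labels. Nothing in the labels says that A and B came from separate mice, so a p-value here reflects the spread among 4 libraries alone, and that spread may be technical.

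TCF-1, the product of Tcf7, and its relative LEF1 are HMG-box proteins that bind DNA and act with beta-catenin as activators or with Groucho proteins of the TLE family as repressors. In chronic infection and in tumours, CD8 T cells with TCF-1 form a self-renewing pool, often called stem-like or progenitor exhausted cells, that gives rise to effector-like and terminally exhausted cells. BACH2, BCL6 and ID3 are known for holding back effector differentiation, ID2 and Blimp-1 (Prdm1) for promoting it, and FOXO1, FOXP1, SATB1 and KLF3 for sustaining or restraining programmes of naive and quiescent T cells.

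Library totals ran from 27530187 to 30569728 counts, and 12069 to 12527 genes had a count in a library. Levels are given as counts per 1000000 (CPM) on the scale of the trimmed mean of M values (TMM), which corrects for differences in library composition. Cd8a, a chain of the CD8 co-receptor, stood at 1024 and 1113 CPM in the JAML-negative pair and 1044 and 1052 CPM in the JAML-positive pair. Jaml itself stood at 131 and 117 CPM in the JAML-negative pair and 138 and 147 CPM in the JAML-positive pair, a log2 fold change of 0.20 with a standard error (SE) of 0.26. The sort was on the surface protein, and the edgeR quasi-likelihood test gave the Jaml transcript an adjusted p of 0.881. A single library, JAML-positive replicate A, differed in composition. Its share of counts in ribosomal protein genes was 12.1%, where the other 3 libraries had 7.41% to 8.29%, and its share in Malat1, a nuclear RNA, was 0.0703%, where they had 0.120% to 0.146%.

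None of the 10 genes passed an adjusted p of 0.05 in the edgeR test, and neither did any of the 11563 genes (0.0%). Tcf7 was the most abundant of the 10 per length and had lower values in both JAML-positive libraries, at 0.692 of its JAML-negative level. Id2, the effector counterpart of Id3, had higher values in both, at 1.49 times its JAML-negative level. Of the remaining genes, Foxp1, Bach2, Satb1 and Klf3 were also lower in both JAML-positive libraries than in either JAML-negative one, Id3 was higher by a narrow margin, and Lef1, Foxo1 and Bcl6 overlapped. Fold changes are JAML-positive minus JAML-negative on the log2 scale throughout, and their median was -0.26 over the 10 genes against 0.01 over all genes tested. A negative fold change was found for 8 of the 10 genes and for 49.3% of all genes. Groups did not overlap and were lower in JAML-positive cells for 5 of the 10, against 18.2% of all genes and 21.1% of genes with at least 30 CPM. They did not overlap and were higher for 2 of the 10, against 20.3%. At an unadjusted p under 0.05 stood 2 of the 10 genes, Tcf7 and Id2, against 7.65% of all genes. DESeq2, a second count test, called 1 of the 10, Tcf7, and called 7.65% of all genes. Adjusted edgeR p-values of the 10 ran from 0.609 to 0.990. In sorted bulk cells, fewer cells of a type and less RNA per cell cannot be told apart.

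**Figure D1:**
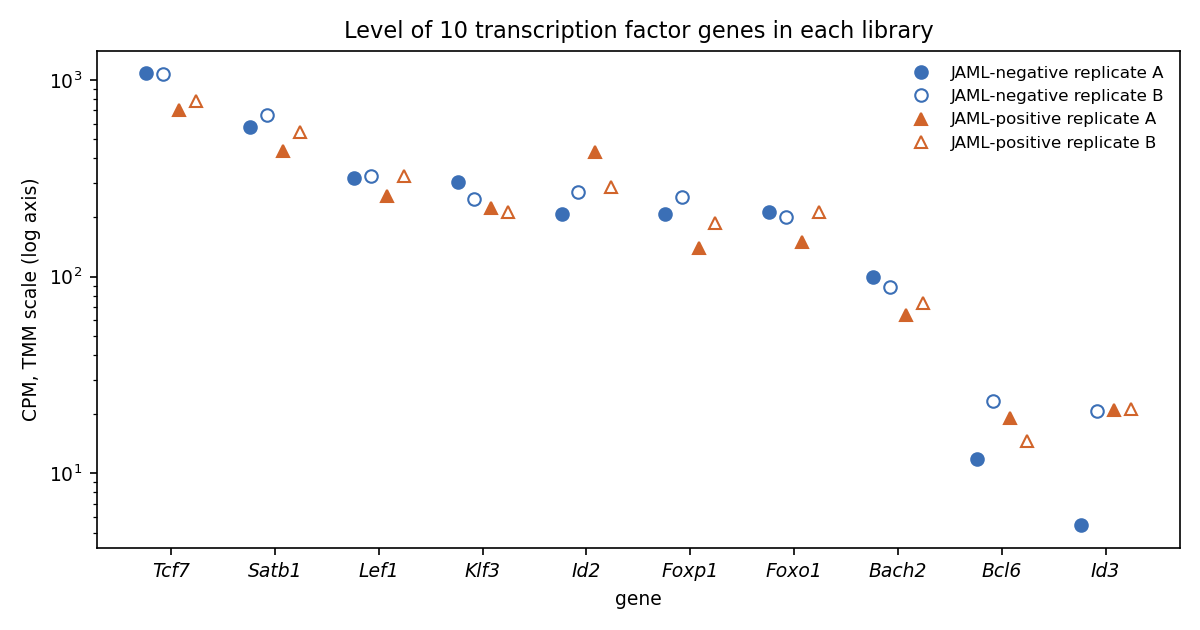
Level of each gene in each library, in CPM on the TMM scale (log axis), ordered by mean level in the JAML-negative libraries. Circles are JAML-negative and triangles JAML-positive libraries, filled for replicate A and open for replicate B. Tcf7 lies at 1080 and 1071 CPM in the JAML-negative and at 705 and 782 CPM in the JAML-positive libraries, while the 2 groups overlap for Lef1, Foxo1 and Bcl6.

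Tcf7 (Entrez 21414) lies on chr11:52246527-52283383 of GRCm38, on the minus strand. Its counts were 30501 and 29476 in the JAML-negative pair and 18641 and 24446 in the JAML-positive pair, or 1075 ± 6.38 against 743 ± 54.2 CPM (SD, n = 2). The JAML-negative libraries lay close together, and both JAML-positive libraries lay well below them, replicate A lowest. The log2 fold change was -0.53 with an SE of 0.19 and a 95% interval of -0.95 to -0.12, which excludes 0 before adjustment. With edgeR the unadjusted p was 0.0165 and the adjusted p 0.609. DESeq2 gave -0.55 with an adjusted p of 0.00153. Over the other settings tried, the adjusted p ran from 0.148 to 0.881 and the fold change from -0.72 to -0.46. Leaving out each library in turn kept Tcf7 between -0.61 and -0.46. Counts were made per gene, so the long and short forms of TCF-1, with and without the part that binds beta-catenin, were not separated.

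Lef1 (Entrez 16842), the other lymphoid member of the TCF/LEF family, lies on chr3:131110297-131224357 on the plus strand. It had 8937 and 8960 counts in the JAML-negative pair and 6833 and 10151 in the JAML-positive pair. In CPM these were 316 and 325 against 258 and 325, so that JAML-positive replicate B sat with the JAML-negative pair and replicate A alone was low. The log2 fold change was -0.14 with an SE of 0.22, an interval of -0.62 to 0.35 and an adjusted edgeR p of 0.906. Without JAML-positive replicate A it was 0.02. The ratio of Tcf7 to Lef1 within a library does not depend on library scaling. It was 3.41 and 3.29 in the JAML-negative pair and 2.73 and 2.41 in the JAML-positive pair, a log2 difference of -0.39 with no overlap between groups. An exact permutation test of 2 libraries against 2 cannot give a p under 1 in 3, and the ratios are given with no test.

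The promoter windows of both TCF/LEF genes and of the ID pair are shown because the results set these relatives against each other. Each window holds 250 bases before and 50 after an annotated start site, from RefSeq on GRCm38.p6, 5′ to 3′ on the strand of the gene. Capitals mark the E-box CAGCTG, a site bound by E proteins, and the forkhead core TGTTTAC, a site of FOXO and FOXP factors, which reads GTAAACA where it lies on the opposite strand.
Tcf7 window 1, chr11:52282965-52283264, minus strand: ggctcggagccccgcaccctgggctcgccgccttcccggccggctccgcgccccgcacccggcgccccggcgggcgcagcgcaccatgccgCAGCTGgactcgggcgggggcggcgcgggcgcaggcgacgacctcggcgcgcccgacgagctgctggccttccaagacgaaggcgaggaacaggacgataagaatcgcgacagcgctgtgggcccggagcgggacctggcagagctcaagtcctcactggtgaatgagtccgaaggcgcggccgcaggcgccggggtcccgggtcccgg
Tcf7 window 2, chr11:52282546-52282845, minus strand: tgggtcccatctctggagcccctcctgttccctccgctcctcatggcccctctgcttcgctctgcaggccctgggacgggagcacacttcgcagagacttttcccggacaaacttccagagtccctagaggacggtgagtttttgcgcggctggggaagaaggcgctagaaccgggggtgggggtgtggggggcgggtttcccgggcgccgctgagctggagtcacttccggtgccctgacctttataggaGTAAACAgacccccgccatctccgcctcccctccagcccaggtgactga
Lef1 window 1, chr3:131110047-131110346, plus strand: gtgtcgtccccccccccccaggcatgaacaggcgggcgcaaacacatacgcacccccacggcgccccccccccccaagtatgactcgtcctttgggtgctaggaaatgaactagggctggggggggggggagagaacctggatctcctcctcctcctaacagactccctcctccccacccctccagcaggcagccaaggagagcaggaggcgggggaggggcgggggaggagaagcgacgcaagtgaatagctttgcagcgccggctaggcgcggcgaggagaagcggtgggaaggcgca
Id2 window 1, chr12:25096043-25096342, minus strand: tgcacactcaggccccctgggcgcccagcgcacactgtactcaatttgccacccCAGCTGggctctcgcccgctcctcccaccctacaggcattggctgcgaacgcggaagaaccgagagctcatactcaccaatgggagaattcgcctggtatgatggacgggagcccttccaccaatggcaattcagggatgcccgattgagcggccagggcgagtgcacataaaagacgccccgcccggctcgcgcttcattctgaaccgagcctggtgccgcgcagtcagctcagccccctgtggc
Id3 window 1, chr4:136143572-136143871, plus strand: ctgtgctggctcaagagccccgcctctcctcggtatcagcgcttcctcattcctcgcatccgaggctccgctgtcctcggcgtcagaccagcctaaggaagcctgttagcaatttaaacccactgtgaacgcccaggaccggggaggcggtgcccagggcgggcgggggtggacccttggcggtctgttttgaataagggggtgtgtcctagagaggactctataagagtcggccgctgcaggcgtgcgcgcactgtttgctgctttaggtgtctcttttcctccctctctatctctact

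Both windows of Tcf7 lie inside the annotated gene, and window 1 has a GC content of 76.3%, against 67.3% in Lef1 window 1, 63.3% in Id2 and 60.0% in Id3. The 10 genes have 21 such windows, and motifs were searched in them on both strands. Windows 1 and 2 of Lef1 share bases, as do windows 4 and 5 of Satb1, so the same site can count in more than 1 window. The TCF/LEF core ATCAAAG was in 0 of the 21 and in 3.73% of all 32851 windows of this length. TGTTTAC was in 1 of 21, Tcf7 window 2, where its match begins at base 1 after the start, and in 3.65% of all. CAGCTG was in 4 of 21 windows, of Tcf7, Lef1, Id2 and Satb1, and in 16.3% of all. In Tcf7 window 1 it begins at base -159 and in Id2 at base -196 from the start, while the window of Lef1 that holds it is another than the one printed. The Tcf7 match lies inside the annotated gene and directly follows the letters atgccg. Whether it is coding sequence was not tested. TGAGTCA, the AP-1 core that sites of BACH2 also contain, was in 0 of 21 and in 5.2% of all. CACCC, the core bound by KLF proteins, was in 16 of 21 and in 57.5% of all, and it is not capitalised above. A match describes these letters only, and a window without one says nothing of whether the factor binds the gene.

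Bach2 (Entrez 12014) encodes a BTB and leucine zipper repressor that competes with AP-1 factors at their sites. It lies on chr4:32238413-32586109 on the plus strand and had 2803 and 2434 counts in the JAML-negative pair and 1683 and 2310 in the JAML-positive pair. In CPM these were 99.2 and 88.4 against 63.7 and 73.9, with every JAML-positive value below every JAML-negative one. The log2 fold change was -0.44 with an SE of 0.32, an interval of -1.14 to 0.26 and an adjusted edgeR p of 0.744. Exons of Bach2os, an antisense RNA that the table also counts, cover 5.4% of its exonic bases. Bach2os had 72 and 142 counts in the JAML-negative pair and 1 and 36 in the JAML-positive pair, few beside those of Bach2. No source used here says whether the counting used strand, so reads of the shared bases cannot be told apart.

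Bcl6 (Entrez 12053), a zinc finger repressor opposed by Blimp-1, lies on chr16:23965050-23988866 on the minus strand. It was scarce, with 333 and 642 counts in the JAML-negative pair and 508 and 459 in the JAML-positive pair. These were 11.8 and 23.3 against 19.2 and 14.7 CPM. The JAML-negative libraries held both the lowest and the highest value, and the JAML-positive libraries lay between them. Its log2 fold change was -0.06 with an SE of 0.69 and an interval of -1.57 to 1.45. Its sign depended on the library left out. It was -0.48 when JAML-negative replicate A was dropped, 0.52 when JAML-negative replicate B was, and 0.13 when JAML-positive replicate B was.

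The ID proteins are helix-loop-helix factors without a DNA-binding region that hold E proteins inactive. Id2 (Entrez 15902) lies on chr12:25093799-25096092 on the minus strand and had 5873 and 7394 counts in the JAML-negative pair and 11318 and 8881 in the JAML-positive pair. In CPM it ran 208 and 269 against 428 and 284, or 238 ± 42.9 against 356 ± 102 (SD, n = 2). JAML-positive replicate A was far the highest, and replicate B lay only just above the higher JAML-negative library. The log2 fold change was 0.58 with an SE of 0.26 and a 95% interval of 0.02 to 1.14. The unadjusted edgeR p was 0.0443 and the adjusted p 0.609, and the latter ran from 0.277 to 0.881 over the other settings apart from DESeq2. Without JAML-positive replicate A the fold change of Id2 was 0.26, and without JAML-positive replicate B it was 0.84.

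Id3 (Entrez 15903), on chr4:136143822-136145392 of the plus strand, had 154 and 570 counts in the JAML-negative pair and 553 and 663 in the JAML-positive pair. These were 5.45 and 20.7 against 20.9 and 21.2 CPM. A single library, JAML-negative replicate A, was low, and the other 3 were nearly level. The log2 fold change of 0.70 had an SE of 0.74, an interval of -0.92 to 2.31 and an adjusted edgeR p of 0.846. With that low library left out the fold change of Id3 was 0.02, and with JAML-negative replicate B left out it was 1.95. The ratio of Id3 to Id2, a common reading of the memory against the effector side, was 0.0262 and 0.0771 in the JAML-negative pair and 0.0489 and 0.0747 in the JAML-positive pair. Neither group was the higher in this ratio, since the JAML-negative libraries held both extremes.

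Foxo1 (Entrez 56458) encodes a forkhead factor that drives Il7r and Klf2 in naive T cells and is held in the cytoplasm by AKT. It lies on chr3:52268337-52350109 on the plus strand and had 6048 and 5524 counts in the JAML-negative pair and 3980 and 6680 in the JAML-positive pair. In CPM these were 214 and 201 against 151 and 214, again with JAML-positive replicate A alone below the rest. For Foxo1 the log2 fold change was -0.18 with an interval of -0.74 to 0.37 and an adjusted edgeR p of 0.888. Without JAML-positive replicate A it was 0.05.

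Foxp1 (Entrez 108655), a forkhead repressor that maintains T cell quiescence, lies on chr6:98925342-99522746 on the minus strand. It had 5902 and 6955 counts in the JAML-negative pair and 3698 and 5832 in the JAML-positive pair. In CPM these were 209 and 253 against 140 and 186, so that both JAML-positive values lay under both JAML-negative ones. Foxp1 had a log2 fold change of -0.49 with an SE of 0.25, an interval of -1.05 to 0.06 and an adjusted edgeR p of 0.613. It ran from -0.73 without JAML-positive replicate B to -0.30 without JAML-positive replicate A.

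Satb1 (Entrez 20230), a chromatin organiser abundant in thymocytes and naive T cells, lies on chr17:51736187-51833290 on the minus strand. It had 16301 and 18243 counts in the JAML-negative pair and 11518 and 17008 in the JAML-positive pair. In CPM these were 577 and 663 against 436 and 544, and the JAML-positive replicate B lay just under JAML-negative replicate A. The fold change of Satb1 was -0.34 on the log2 scale with an SE of 0.21, an interval of -0.80 to 0.12 and an adjusted edgeR p of 0.687.

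Klf3 (Entrez 16599), a zinc finger factor that recruits CtBP co-repressors, lies on chr5:64803521-64832901 on the plus strand. It had 8554 and 6818 counts in the JAML-negative pair and 5876 and 6631 in the JAML-positive pair. In CPM these were 303 and 248 against 222 and 212, and JAML-negative replicate A was the highest. Klf3 was the only one of the 10 with its lowest value in JAML-positive replicate B. The log2 fold change was -0.34 with an SE of 0.23, an interval of -0.84 to 0.16 and an adjusted edgeR p of 0.711.

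**Figure D2:**
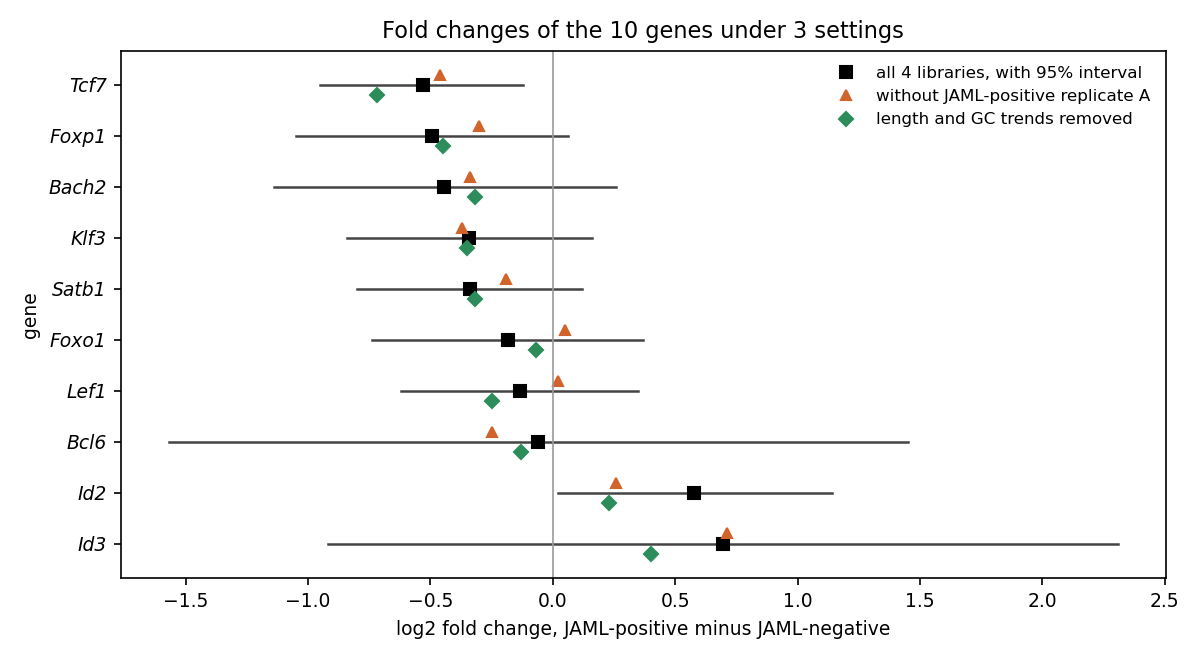
Log2 fold change of each gene, JAML-positive minus JAML-negative. Squares with bars are the estimates from all 4 libraries with 95% intervals, triangles the estimates without JAML-positive replicate A, and diamonds those after removal of length and GC trends. Tcf7 stays between -0.72 and -0.46 under the 3 settings, Id2 goes from 0.58 to 0.26 and 0.23, and Lef1 and Foxo1 cross 0 without that library.

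The spread among libraries bore on several of these values. JAML-positive replicate A, the library with the high ribosomal protein share, was the lowest of the 4 for 6 of the 10 genes, against 25.2% of all genes. JAML-negative replicate A was the lowest for 3. Without JAML-positive replicate A, a count added after the data were seen, 5 of the 10 genes lay below both JAML-negative libraries and 2 above, against 31.6% and 34.1% of all genes. Tcf7 was -0.46, Klf3 -0.37, Bach2 -0.34, Foxp1 -0.30 and Satb1 -0.19 in that setting. All 5 lay below both JAML-negative libraries in the full comparison. Leaving out a library could therefore hardly change their sign, and it could not lower the counts of 5 and 2. The part of RNA quality in the differences was not tested beyond this.

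Fold changes also ran with transcript length across the table. Among genes with at least 30 CPM the median log2 fold change was 0.37 for the 178 genes under 1000 nucleotides and -0.25 for the 415 genes over 8000. The 2 genes with positive values, Id3 at 1278 and Id2 at 1969 nucleotides, had the shortest transcripts of the 10. Bach2 at 8882, Foxo1 at 8665 and Foxp1 at 7177 nucleotides had the longest. Tcf7 was the exception among the 5 genes that were lower without overlap, with a transcript of 2471 nucleotides in a class whose median was 0.05. With each library's trend of length and GC content removed, Tcf7 was -0.72 with an SE of 0.16 and an adjusted edgeR p of 0.507, Foxp1 -0.45, Klf3 -0.35, and Bach2 and Satb1 -0.32 each. That setting moved the median of all genes from 0.01 to -0.09. In the same setting Id2 was 0.23 with an adjusted edgeR p of 0.790, and Id3 was 0.40.

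**Figure D3:**
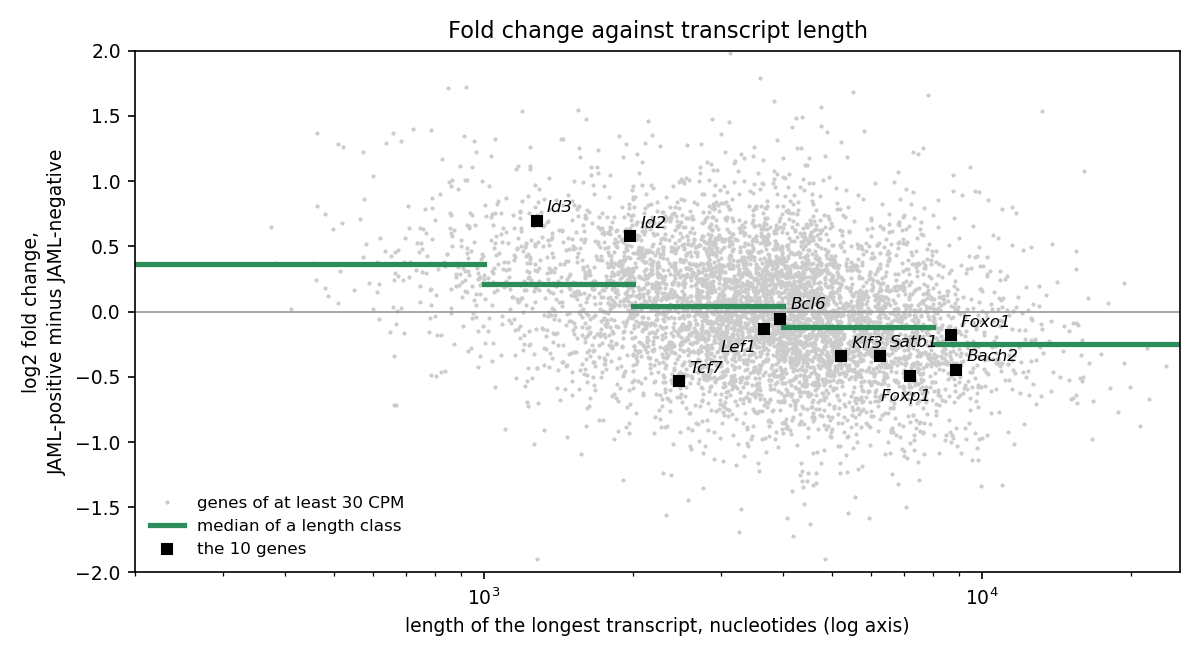
Log2 fold change against the length of the longest annotated transcript (log axis) for the 5742 genes with at least 30 CPM and a length (grey; 8 lie outside the plotted range) and for the 10 genes (squares). Bars are medians of length classes, from 0.37 under 1000 to -0.25 over 8000 nucleotides. Id3 and Id2 lie at the short end with positive values, and Tcf7 at -0.53 lies below the bar of its class.

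Levels can be set side by side only per length, here as CPM per kilobase of the longest transcript, meaned over the 4 libraries. Tcf7 stood first at 368, with a range of 285 to 437 that did not meet that of any other of the 10. Id2 followed at 151, Satb1 at 88.9 and Lef1 at 83.8, and the ranges of these neighbours overlapped. Klf3 at 47.1 was apart from Lef1 above it. Foxp1 at 27.4 was apart from Klf3 but overlapped Foxo1 at 22.5. Id3 at 13.4 lay apart from Foxo1, with a range of 4.27 to 16.6 that overlapped Bach2 at 9.15. Bcl6 was the scarcest at 4.39, with a range below that of Bach2. The order is the level of transcript, and it says nothing of protein.

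The factors were next set against those known to oppose or accompany them, as ratios of CPM within a library. Prdm1, which encodes Blimp-1, stood at 46.6 and 105 CPM in the JAML-negative pair and 38.2 and 69.4 CPM in the JAML-positive pair. Tcf7 was accordingly 23.2 and 10.2 times Prdm1 in the JAML-negative pair and 18.5 and 11.3 times in the JAML-positive pair. Replicate A was the higher in both groups, and the groups overlapped. The ratios of Bach2 and Bcl6 to Prdm1 overlapped too. Id3 to Prdm1 did not overlap, at 0.117 and 0.198 in the JAML-negative pair and 0.548 and 0.306 in the JAML-positive pair. Id3 has 1278 and Prdm1 5281 nucleotides, and the part of the length trend in this ratio was not tested. Against Tox, the factor of exhaustion, Tcf7 stood at 12.8 and 15.7 in the JAML-negative pair and 13.8 and 12.9 in the JAML-positive pair, which overlapped. Tox itself had a log2 fold change of -0.45 with an SE of 0.36. Against Tbx21, which encodes T-bet, the ratio of Tcf7 was 8.20 and 9.32 in the JAML-negative pair and 5.67 and 6.78 in the JAML-positive pair, a log2 difference of -0.49 without overlap. Tbx21 itself overlapped between groups, with a log2 fold change of -0.04 and an SE of 0.27.

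**Figure D4:**
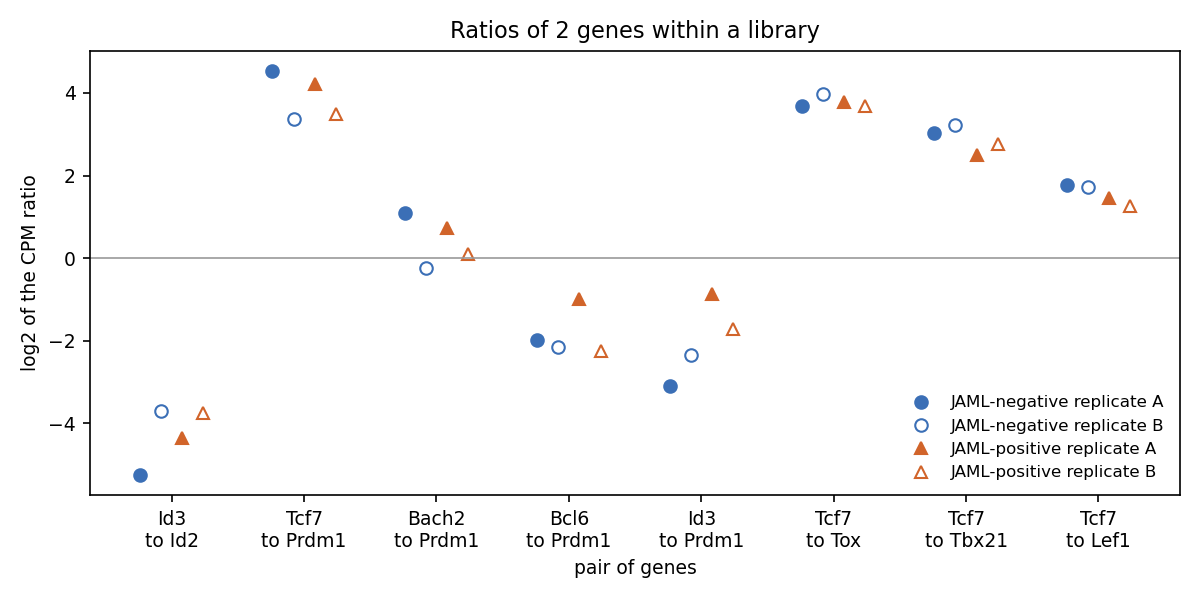
Log2 of the CPM ratio of a pair of genes in each library, with symbols as in the plot of levels. The JAML-positive libraries lie below the JAML-negative ones for Tcf7 to Tbx21 and Tcf7 to Lef1, by 0.49 and 0.39 on average, and above them for Id3 to Prdm1. The groups overlap for the other 5 pairs.

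Related genes were taken from fixed lists, and no gene of any list passed an adjusted edgeR p of 0.05. Their values are given without removal of the length trend, whose part in them was not tested. Of those named as higher, Xcl1 has 523, Batf 955 and Tcf4 8577 nucleotides. Of those named as lower, Tle3 has 8638, Ikzf2 9278, Bcl2 7191 and Maff 1958. Among partners of TCF-1 and genes of the Wnt pathway, 15 of 20 were tested, 7 with positive and 8 with negative values, and the median was -0.20. Tle3, a Groucho co-repressor that TCF-1 recruits, stood at 348 and 308 CPM in the JAML-negative pair and 161 and 185 CPM in the JAML-positive pair. Its log2 fold change was -0.92 (SE 0.23) with no overlap between groups and an adjusted edgeR p of 0.609. Tle4, its relative, was at -0.73 (SE 0.36). Tle5 at 0.06 (SE 0.23) and Tle1 at 0.37 (SE 1.16), of the same family, overlapped between groups. Axin2, a classic target of TCF and beta-catenin, was at -1.02 (SE 0.46) and did not overlap between groups. Bcl9l, a co-activator of beta-catenin, was at -0.41 and overlapped, and Ctnnb1, which encodes beta-catenin, was at 0.20 (SE 0.28).

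Of the E proteins and other ID proteins, 4 of 5 were tested, with 2 values of each sign and a median of 0.13. Tcf12 and Tcf3, the E proteins HEB and E2A that ID2 and ID3 bind, were at -0.34 and -0.30 and overlapped. Id1 had a log2 fold change of 0.56 with an SE of 1.65. Tcf4, the E protein E2-2, had 100 and 8 counts in the JAML-negative pair and 557 and 980 in the JAML-positive pair. Its log2 fold change was 3.77 with an SE of 1.05 and an adjusted edgeR p of 0.609. E2-2 is the defining factor of plasmacytoid dendritic cells, and Siglech, a marker of those cells, had 161 and 13 against 1491 and 1527 counts in the same order of libraries. The part of such cells in the difference of Tcf4 was not tested.

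Partners and relatives of BACH2, BCL6 and SATB1 had 2 positive and 7 negative values among 9 of 11 tested, with a median of -0.34. Maff, a small MAF protein of the kind that pairs with BACH2, was at -0.60 and Ncor1, a co-repressor of BCL6, at -0.34, both without overlap. Zbtb17 was at -0.64, Hdac3 at -0.42 and Bach1, the close relative of Bach2, at -0.21, all with overlap. Among relatives of FOXO1 and FOXP1, 4 of 6 were tested, with 2 values of each sign and a median of -0.02. Foxo3 was at 0.18, Foxo4 at -0.30, Foxp4 at -0.23 and Foxp3, the factor of regulatory T cells, at 0.71 with an SE of 1.58. Of the KLF relatives and co-repressors of KLF3, 9 of 10 were tested, 1 with a positive and 8 with a negative value, and the median was -0.24. Klf6, the most abundant of them that is named here, stood at 1084 and 1083 CPM in the JAML-negative pair and 765 and 873 CPM in the JAML-positive pair, a log2 fold change of -0.40 (SE 0.19). Klf7 was at -0.61, and Klf2, a target of FOXO1 that sustains egress from lymphoid organs, was at -0.25 with overlap. Klf12 had no counts in the JAML-negative libraries and 66 and 202 counts in the JAML-positive ones.

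Other naive and stem-like genes were all tested, 6 of 20 with positive and 14 with negative values and a median of -0.23. Groups did not overlap for 11 lower and 2 higher genes of these 20, against 18.2% and 20.3% of all genes. Bcl2, the survival factor, stood at 375 and 390 CPM in the JAML-negative pair and 212 and 256 CPM in the JAML-positive pair, a log2 fold change of -0.71 (SE 0.22). Slamf6, which encodes the surface marker Ly108 of progenitor exhausted cells, was at -0.76 (SE 0.27), and Txk, a TEC family kinase, at -0.93 (SE 0.32). Xcl1, a chemokine that stem-like CD8 T cells make, went the other way at 1.27 (SE 0.44). Il7r, a target of FOXO1, and Ccr7, a homing receptor, had values closer to 0, at -0.13 and 0.20. Adjusted edgeR p-values of the list were 0.609 or higher.

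Factors of effector and exhausted cells were all tested, 7 of 18 with positive and 11 with negative values and a median of -0.11. Batf, an AP-1 partner, was at 1.31 (SE 0.56). Ikzf2 was at -0.89 (SE 0.36), Nr4a1 at -0.58 (SE 0.21) and Nr4a3 at -0.57 (SE 0.27), all without overlap. Prdm1 was at -0.47, Zeb2 at -0.96 and Eomes at 0.24, each with an SE that left the interval across 0. Prdm1 and Zeb2 overlapped between groups, and Eomes was higher by a narrow margin, at 55.5 and 74.6 against 74.7 and 78.3 CPM. The counts of genes outside overlap in this list were 5 higher and 5 lower of 18, against 20.3% and 18.2% of all genes.

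**Figure D5:**
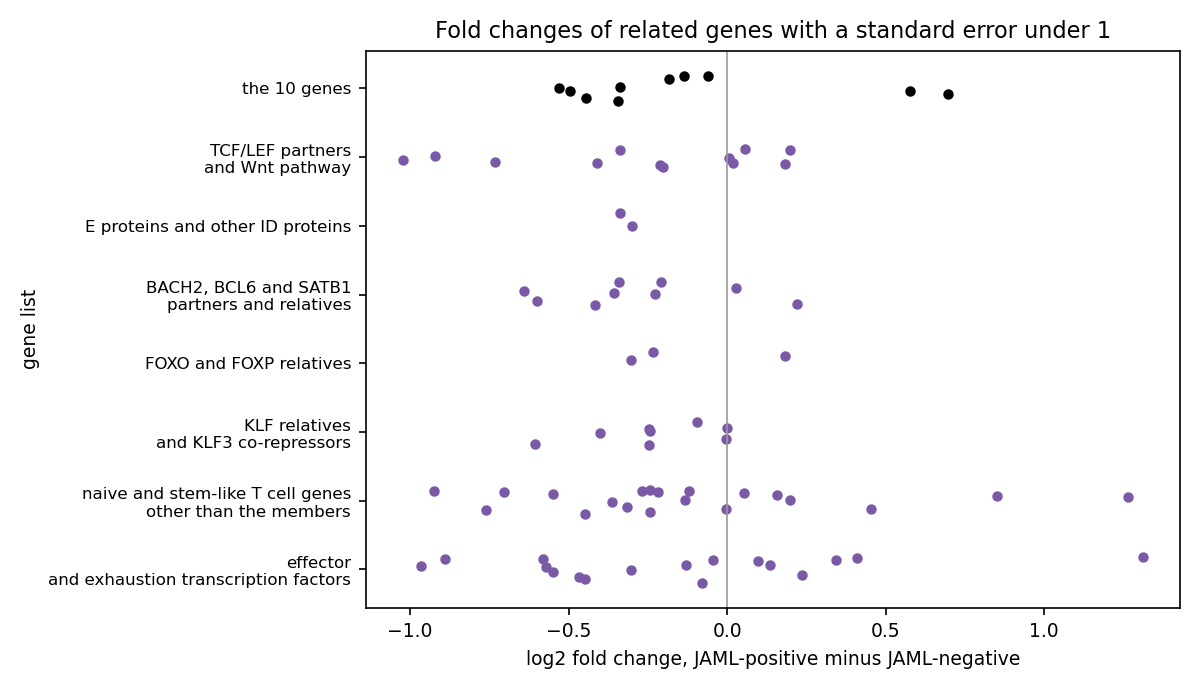
Log2 fold changes of the 10 genes (black) and of 71 genes from the lists of related genes (purple) whose standard error was under 1. Each point is a gene, shifted vertically for legibility. Most points of the BACH2, BCL6 and SATB1 partners, of the KLF relatives and of the naive and stem-like genes lie below 0, with medians of -0.34, -0.24 and -0.23.

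Markers of other cells were summed in each library, and no marker passed the edgeR test. T cell genes had positive values in 4 of 5 and summed to 2856 and 2895 CPM in the JAML-negative pair and 3346 and 2886 CPM in the JAML-positive pair. CD4 and regulatory T cell genes, a population in which Tcf7, Id2 and Bach2 are also expressed, had positive values in 5 of 5 and summed to 452 and 430 against 617 and 703 CPM. Cd4, Ctla4 and Il2ra were higher without overlap. Zbtb7b overlapped between groups, as did Foxp3, at 1.06 and 4.65 against 10.1 and 0.0 CPM. Plasmacytoid dendritic cell genes had positive values in 9 of 9 tested and summed to 224 and 226 against 380 and 465 CPM, with Ly6d at 0 in both JAML-negative libraries. Siglech, Ly6d, Ccr9, Irf8, Spib and Tcf4 were higher without overlap. Runx2, the largest part of the JAML-negative sums, overlapped at 124 and 114 against 81.8 and 187 CPM, as did Bst2 and Klk1. Genes of conventional dendritic cells and MHC class II had positive values in 6 of 7 and summed to 189 and 172 against 442 and 271 CPM. H2-Aa, H2-Ab1, H2-Eb1, Cd74 and Flt3 were higher without overlap. Itgax was lower without overlap, at 124 and 116 against 75.1 and 61.4 CPM. Xcr1 overlapped, and Zbtb46, Clec9a and Batf3 did not pass the filter on low counts. B and plasma cell genes had them in 4 of 5 and summed to 19.3 and 22.6 against 130 and 90.2 CPM. Macrophage genes summed to 85.2 and 96.4 against 209 and 173 CPM, with 7 of 10 values positive and 3 negative. Most of that rise was Mpeg1, at 7.50 and 13.9 against 119 and 89.6 CPM. C1qb was also higher without overlap and Adgre1 lower, while the rest, among them Lyz2, Csf1r and Cd68, overlapped between groups. Red cell genes summed to 0.0 and 0.0363 against 49.7 and 15.9 CPM, with positive values for both tested. Natural killer cell genes summed to 231 and 193 against 183 and 179 CPM, with 3 of 5 positive, and hepatocyte and tumour genes to 53.2 and 27.5 against 18.1 and 22.0 CPM, with 1 of 2 positive. Id2 and Tcf4 are expressed in dendritic cells, and the part of these other cells in the values of the 10 genes was not tested.

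The genes whose levels over the 4 libraries most resembled those of Tcf7 were named by the distance between log2 CPM profiles, each centred on its own mean, among 5756 genes with at least 30 CPM. They were Ptk2b, a tyrosine kinase of the focal adhesion kinase family, at a distance of 0.0412, then Snapc1 at 0.0550, Atg16l2 at 0.0610, S1pr1, the sphingosine phosphate receptor of lymphocyte egress, at 0.0649, and Marchf7 at 0.0736. Ptk2b stood at 340 and 325 CPM in the JAML-negative pair and 216 and 239 CPM in the JAML-positive pair. S1pr1 stood at 269 in both JAML-negative libraries and at 168 and 198 CPM in the JAML-positive ones. Of the 10 genes of the set, Bach2 came nearest to Tcf7, at rank 50 with a distance of 0.146. Satb1 was at rank 283, Foxp1 at 307, Klf3 at 425, Lef1 at 797, Foxo1 at 841 and Id2 at 4847. Bcl6 and Id3 were below 30 CPM and were not ranked. All of these profiles share the same 4 libraries, so the ranks are a description.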

How the data were processed

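RNA was read from 2 JAML-positive and 2 JAML-negative libraries of sorted CD8 T cells, built with a SMARTER kit for mRNA, per the labels' protocols. The authors deposited 1 table of raw counts, whole numbers for each gene and library, with no normalization recorded. Per the submitters' processing notes, reads were placed on GRCm38 (mm10). Aligner, counter and use of strand: not given in the sources used here.

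Samples were grouped by title. Counts were filtered with filterByExpr (minimum count 10), scaled with TMM and tested with the edgeR 4.0.16 quasi-likelihood test (robust) in R 4.3.3, JAML-positive against JAML-negative without covariates. Adjustment was by Benjamini-Hochberg over all 11563 genes, with calls under 0.05. The SE is the absolute log2 fold change over the square root of F. DESeq2 1.42.0, limma-voom (limma 3.58.1), other scalings and filters, each library left out, a replicate block and an offset for length and GC (mgcv 1.9.3) were alternatives. Groups overlap unless both libraries of one lie above both of the other. The code was tested on simulated counts.

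The 10 genes and the lists were chosen with earlier results of these data known. All 10 were to be named, with up to 4 genes of smallest p per list of related genes, a set of known counterparts, and the 5 genes most like Tcf7, though some items are not reported here. Coordinates and promoters come from RefSeq (14678 genes matched by Entrez identifier, and all 10 genes had promoters), and lengths from the longest GENCODE M21 transcript (13795 genes, 92.4%). Totals were 27530187 to 30569728 counts per library, and both the 2 libraries per group and the count of a gene limit the precision.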

Additional observations from a re-analysis of the deposited data

How the results depend on the processing

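With 2 libraries per group, the median SE of a log2 fold change was 0.56 over all genes and 0.26 for the 2252 genes with at least 100 CPM, which limits what could be called. DESeq2 called 885 genes, 536 higher and 349 lower, and 1 of the 10 genes, Tcf7 at -0.55. With no filter, with at least 5 CPM and with at least 30 CPM, edgeR called 2 genes each time, none of the 10. Leaving out each library in turn gave 0 to 11 called genes, the 11 without JAML-positive replicate B, and none of the 10. The other scalings, limma-voom, the earlier quasi-likelihood method of edgeR (added after the data were seen) and the length and GC offset called 0 genes. Ratio differences with a library left out were also added then. They ran from -0.48 to -0.30 for Tcf7 to Lef1, -0.62 to -0.37 for Tcf7 to Tbx21 and 1.01 to 1.85 for Id3 to Prdm1. Groups did not overlap for these pairs, so leaving out a library could not change the sign, only the size. The sign changed for the other 5 pairs.

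Of 148 recomputed fold changes of the 10 genes, 142 kept their sign and their side of the threshold, 5 reversed and 1 became a call. For genes whose groups did not overlap, leaving out a library could hardly change the sign. Bcl6 was 0.0092 with limma-voom and -0.48 to 0.52 with a library left out, with 0.13 when JAML-positive replicate B was absent. Without JAML-positive replicate A, Foxo1 was 0.0457, in a range from -0.47, and Lef1 was 0.0199, in a range from -0.32. The cause was not tested. Under the replicate block, with the letter as a covariate, 0 genes were called and Tcf7 was -0.53. The correlation across 5757 genes of deviations with the same letter was -0.0101, so no pairing by letter was detected, and the labels do not say whether libraries of one letter share an animal or sort.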
